A study of Drosophila melanogaster with 3 samples.

Results

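The regions described here are the 939 reproducible binding peaks of a GFP-tagged fly protein that sat just upstream of a single promoter. They were taken from the authors' optimal list of 3545 peaks, and they made up 26.5% of it (Wilson 95% interval 25.1 to 28.0, which like all such intervals here covers counting error only). A peak was a member when its summit lay 1 to 500 bp upstream, by strand, of the nearest transcription start site (TSS) of a protein-coding gene. In addition, no protein-coding TSS on the opposite strand could lie within 500 bp of the summit, which leaves out closely spaced gene pairs on opposite strands. The other optimal peaks were 413 with an opposite-strand TSS in that window, 405 downstream of a single TSS and 1788 whose summit was more than 500 bp from the nearest TSS. Within the optimal list the rule used position alone, so the position of the members is a description. The rule did not use their signal, replicate ranks, genes or sequence. The optimal list itself was made from these replicates by the authors' test of reproducibility. The members' signal and replicate ranks are thus not independent of how they were chosen.

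The study measured chromatin binding by ChIP-seq in Drosophila melanogaster whole embryos of mixed sex, collected over 0 to 24 hours, with an anti-GFP antibody. All embryos came from 1 transgenic line that carries a C-terminal GFP fusion, and there were 3 biological replicates in 1 group, with no second genotype or treatment. The labels name the tagged protein as CG45071 in the description, as CG6854 in the strain and antibody fields and as CTPsyn, the gene for CTP synthase, in the source name. A whole embryo mixes every tissue and many stages, so a peak could come from few or many of its cells, and the labels say nothing more on how the 3 collections were separated. The sources do not state which promoter drives the fusion. The depth of the libraries is unknown, since peak lists hold no read totals.

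A promoter is the stretch of DNA around a TSS where RNA polymerase and general factors assemble. In flies, promoters of housekeeping genes often carry the DRE, bound by DREF, or motif 1, while developmental promoters often carry a TATA box, an initiator or GAGA elements bound by Trl (GAGA factor). The DNA just upstream of an active fly TSS is usually free of nucleosomes and is often rich in A and T. CTP synthase makes CTP from UTP, is known for assembling into cytoplasmic filaments, and has no textbook role as a DNA-binding protein.

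The sequences that carry the results below are printed 5' to 3' in the direction of transcription of the nearest gene, from the RefSeq copy of the Release 6 (dm6) genome. The first set shows members that ranked 2, 5, 7 and 17 in the optimal list, as 101 bases centred on the summit, with runs of at least 6 A or T bases in capitals. They are shown because member summits had a lower median G+C than other pooled peaks upstream of single promoters. That held for summits more than 100 bp from the TSS, not for those within 100 bp, where Ugalt and CG14100 lie.
Ugalt, chrX:2703831-2703931, minus strand: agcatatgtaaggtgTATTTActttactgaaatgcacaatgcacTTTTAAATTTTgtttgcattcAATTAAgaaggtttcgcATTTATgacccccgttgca
Gapdh2, chrX:15867937-15868037, plus strand: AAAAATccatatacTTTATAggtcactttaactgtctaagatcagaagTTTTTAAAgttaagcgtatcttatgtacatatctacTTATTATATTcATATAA
CG14100, chr3L:19590571-19590671, minus strand: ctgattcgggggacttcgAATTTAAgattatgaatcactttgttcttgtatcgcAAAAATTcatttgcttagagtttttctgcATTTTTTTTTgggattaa
CG1635, chr3R:31588498-31588598, plus strand: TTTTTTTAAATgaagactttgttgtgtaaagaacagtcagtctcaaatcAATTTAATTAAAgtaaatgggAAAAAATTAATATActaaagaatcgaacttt
The summit of CG14100 stood 97 bp from its TSS, that of Ugalt 29 bp, and those of Gapdh2 and CG1635 158 and 125 bp. These 101-base stretches held 31.7% G+C at CG14100, 33.7% at Ugalt, 23.8% at Gapdh2 and 22.8% at CG1635. In the 201 bp used for the results below, the values were 37.3% at CG14100, 47.8% at Ugalt, 29.4% at Gapdh2 and 31.3% at CG1635.

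The second set shows 3 of the strongest members more than 100 bp from the TSS with GAGA letters (GAGAGAG, or CTCTCTC on the other strand) between 26 and 150 bp from the summit. Each stretch is 300 bases with the summit at its middle, and the capitals mark the GAGA letters. They are shown because GAGA letters were more frequent beside the summits of such members than under them.
CG18549, chr3R:12449018-12449317, plus strand: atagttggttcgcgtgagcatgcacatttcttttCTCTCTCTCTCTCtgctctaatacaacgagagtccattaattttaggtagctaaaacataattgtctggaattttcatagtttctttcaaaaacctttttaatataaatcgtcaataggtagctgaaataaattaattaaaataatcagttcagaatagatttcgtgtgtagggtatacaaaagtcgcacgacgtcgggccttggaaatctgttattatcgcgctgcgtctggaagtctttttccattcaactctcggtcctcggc
SLC5A11, chr2L:8205158-8205457, minus strand: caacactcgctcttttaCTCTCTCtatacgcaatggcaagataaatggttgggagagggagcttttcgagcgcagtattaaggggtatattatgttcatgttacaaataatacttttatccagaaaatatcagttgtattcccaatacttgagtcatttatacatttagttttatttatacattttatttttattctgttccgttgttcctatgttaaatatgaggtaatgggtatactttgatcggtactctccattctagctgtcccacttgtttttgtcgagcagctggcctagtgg
Ptpmeg2, chrX:9640675-9640974, minus strand: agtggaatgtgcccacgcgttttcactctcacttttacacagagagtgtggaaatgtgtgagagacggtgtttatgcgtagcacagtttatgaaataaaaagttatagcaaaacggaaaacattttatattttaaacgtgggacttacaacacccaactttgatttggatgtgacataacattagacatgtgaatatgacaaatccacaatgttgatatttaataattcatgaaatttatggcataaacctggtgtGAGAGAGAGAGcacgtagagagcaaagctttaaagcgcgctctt
In CG18549 and SLC5A11 the letters lie upstream of the summit, and in Ptpmeg2 they lie downstream, between the summit and the TSS.

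The third set shows 2 of the strongest members with the DRE letters (TATCGATA, capitals) in the 101 bases around the summit. They are shown because the letters were uncommon among members and were found mainly in those closest to the TSS.
eEF1gamma, chr3R:29220113-29220213, plus strand: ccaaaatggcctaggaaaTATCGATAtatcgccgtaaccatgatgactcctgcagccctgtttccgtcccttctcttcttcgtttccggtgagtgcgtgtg
RpL27, chr3R:25685002-25685102, minus strand: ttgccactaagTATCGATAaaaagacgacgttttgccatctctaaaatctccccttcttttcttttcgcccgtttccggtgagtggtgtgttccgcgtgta
Both summits lie within 10 bp of the TSS, 9 bp upstream at eEF1gamma (a subunit of the translation elongation factor) and 1 bp upstream at RpL27 (a ribosomal protein).

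Peaks upstream of single promoters passed the authors' reproducibility test about as often as peaks with an opposite-strand TSS, and more often than peaks in the other positions. The deposited pooled list held 30000 peaks, of which 11.8% were optimal. Its label describes it as peaks and background that went into that test, so some entries may be background. Of the 3987 pooled peaks upstream of single promoters, 23.6% were optimal (22.3 to 24.9). The share was 24.4% for pooled peaks with an opposite-strand TSS (22.4 to 26.5), an interval that overlaps that of the members' positions. It was 11.9% downstream of a single TSS (10.9 to 13.1) and 8.55% for peaks more than 500 bp from a TSS. A pooled list is 1 analysis of all 3 replicates, so these shares have no replicate error. The 3048 pooled peaks upstream of single promoters that were not optimal are the comparison set below, called non-optimal peaks. Some of them may thus be background, and how many is not known.

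Member summits stood most often between 101 and 300 bp upstream of the TSS. Their median position was -186 bp, with quartiles at -102 and -286 bp, against a median of -170 bp for non-optimal peaks. The optimal share was lowest at both ends of the window. It was 16.9% for pooled peaks 1 to 50 bp upstream, reached 28.7% at 151 to 200 bp, stayed above 25% out to 400 bp and was 16.7% at 451 to 500 bp. The 494 members at 101 to 300 bp were 52.6% of all members, and 232 members (24.7%) lay within 100 bp. Median peak signal was 203 for 101 to 300 bp, 155 within 100 bp and 187 at 401 to 500 bp. Peak signal is a value from the authors' peak caller and serves here only to order peaks within 1 list.

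**Figure D1:**
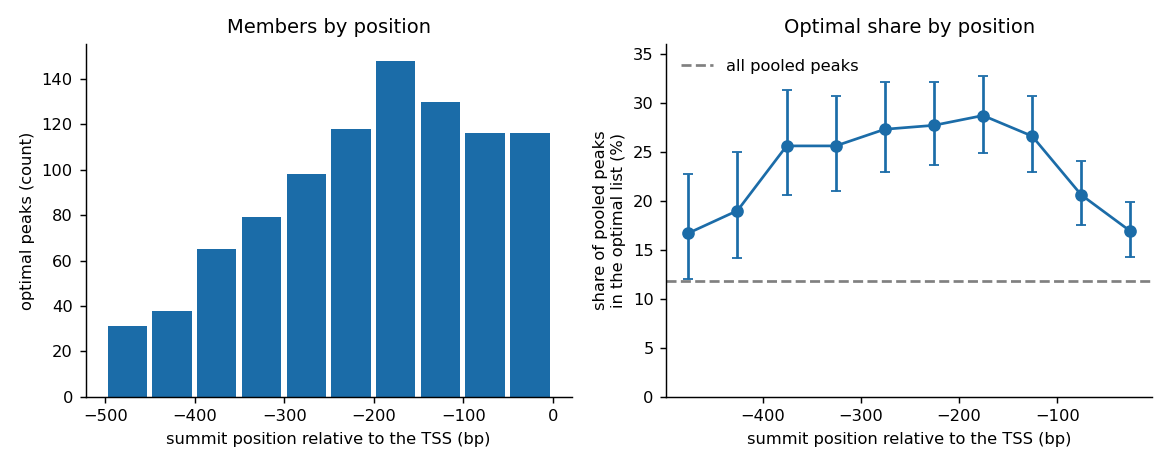
Left, number of members in each 50 bp bin of summit position relative to the TSS (bp, TSS at 0). Right, share of pooled peaks in the same bins that were optimal (percent), with Wilson 95% intervals as bars and a dashed line at the 11.8% of all pooled peaks. The share is highest, 28.7%, at 151 to 200 bp.

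The edges of the rule are marked by the following peaks. The members nearest to a TSS, at -1 bp, were those of the ribosomal protein genes RpL27 and RpS10b and of CG32264. The farthest was Fim (fimbrin, which bundles actin) at -500 bp, followed by Mkp3 (a phosphatase of MAP kinase) and Spag1, both at -495 bp. Just outside were peaks of RpL27A and mlt, 1 and 2 bp downstream of the TSS, and of CG3348 and the pair CG46319 and gem, at -502 bp. On the opposite-strand limit, CG6051 and Nepl19 were kept with such a TSS 503 and 506 bp away, while mask and CG14968, at 499 and 498 bp, were left out. Within 501 to 1000 bp, 85 members (9.05%) had an opposite-strand TSS.

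Near the head of the optimal list the members held more than their 26.5% of all of it. They were 8 of the 20 strongest optimal peaks, 45 of the first 100 (45.0%, 35.6 to 54.8), 83 of the first 200 and 203 of the first 500 (40.6%, 36.4 to 45.0). Peaks with an opposite-strand TSS were also more frequent there, with 17 of the first 100 against 11.7% of the list. The members' ranks ran from 2 to 3545. Median signal was 185 for members, 180 for peaks with an opposite-strand TSS, 153 downstream of a single TSS and 163 beyond 500 bp. The members lay on every large arm, with 182 on 2L, 186 on 2R, 171 on 3L, 218 on 3R, 180 on X and 2 on chromosome 4. As a share of the optimal peaks of an arm this was between 22.5% on 3L and 29.5% on X, leaving aside chromosome 4 with 12 optimal peaks.

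The strongest members were near the top of all 3 replicates. Ugalt, which encodes a transporter of UDP-galactose into the Golgi, ranked 2 in the optimal list, and 1, 2 and 2 among the 30000 peaks of replicates 1, 2 and 3. Gapdh2, a glycolytic dehydrogenase, ranked 5 and stood at 4, 9 and 5 in the replicates. CG14100 ranked 7 and stood at 5, 6 and 7. The replicates thus placed these 3 peaks within 9 positions of the top, with no replicate apart from the others.

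Next came px (plexus, a nuclear protein of wing vein patterning), with replicate ranks of 11, 5 and 10, and CG18549, with 9, 12 and 11. CG1635 followed at 13, 18 and 21, and mRpL41, a mitochondrial ribosomal protein, at 10, 17 and 31. Tina-1 stood at 21, 26 and 18, CG31145 at 26, 30 and 16, and Hsp83, the fly HSP90 chaperone, at 29, 38 and 12. The polyhomeotic gene ph-p, a core component of Polycomb repressive complex 1, had its summit far out at -453 bp and ranked 22, 29 and 15. The remaining 9 of the 20 strongest were CG1888, Fkbp14 (a peptidyl-prolyl isomerase), SLC5A11 (a sodium-coupled transporter), larp (an RNA-binding protein), PAN3 (a subunit of a poly(A)-shortening enzyme), Atf3 (a bZIP transcription factor), amon (a prohormone convertase), Ptpmeg2 (a tyrosine phosphatase) and Hex-A (hexokinase). The worst rank of any of these 20 in any replicate was 95, at Atf3 in replicate 1. In all, 35 members were within the first 100 of every replicate. These include a weaker summit at Atf3 (optimal rank 760) that shares the replicate peaks of the stronger one.

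**Figure D2:**
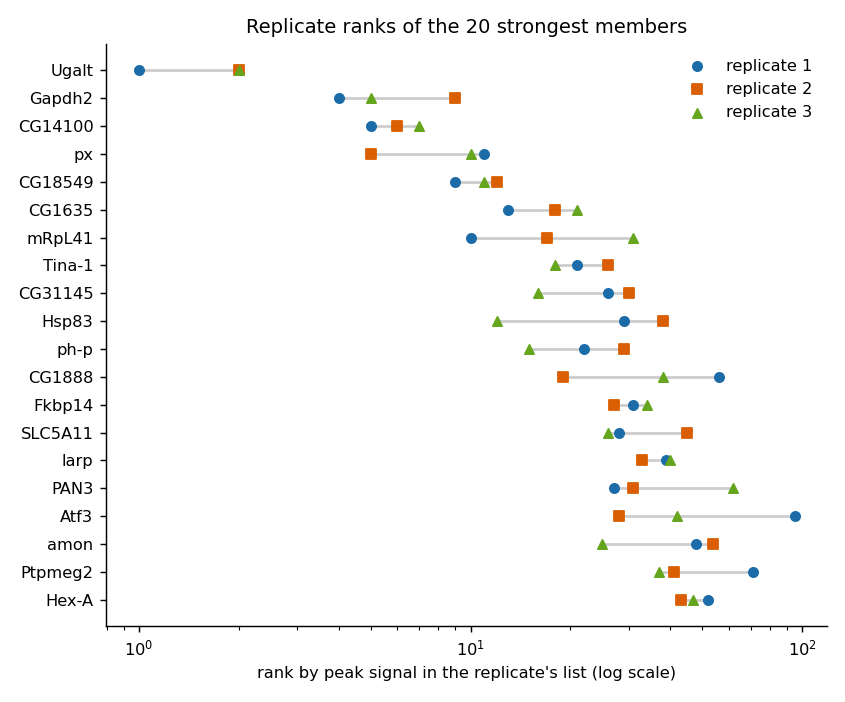
Rank by peak signal of each of the 20 strongest members (one line per nearest gene) in the lists of replicates 1, 2 and 3, on a log axis where 1 is the strongest peak. The 3 points of a gene stay close, from 1, 2 and 2 at Ugalt to 52, 43 and 47 at Hex-A, and none lies past 95.

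Across all members, support was put in terms of each replicate's top list, meaning its 3545 strongest peaks, the length of the optimal list. The top list held 79.1% of members in replicate 1, 86.7% in replicate 2 and 85.9% in replicate 3. Over all optimal peaks the shares were 75.7%, 83.4% and 82.1%. The members thus stood a few points above the background in each replicate, and replicate 1 was lowest for both. The optimal list was itself made from these replicates, so these shares describe how it was built up and are not independent support.

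The mean share over replicates was 83.9% ± 4.17 (SD, n = 3) for members, 83.3% ± 2.31 for peaks with an opposite-strand TSS and 76.0% ± 4.71 for peaks downstream of a single TSS. The difference between members and opposite-strand peaks was -1.99, 0.974 and 2.89 percentage points in replicates 1, 2 and 3 (mean 0.626 ± 2.46, two-sided exact sign-flip permutation p = 0.75), smaller than its spread, and its sign depended on the replicate. With top lists of 1000 peaks it was 3.12 ± 0.883 points and positive in 3 of 3 replicates (exact permutation p = 0.25). The difference from downstream peaks was 8.51, 8.91 and 6.44 points (mean 7.95 ± 1.33, exact sign-flip permutation p = 0.25). It was positive in 3 of 3 replicates and larger than its spread, but 3 replicates cannot give a p below 0.25. In the stronger 50% of the optimal list it was 0.706 ± 1.74 points, smaller than its spread (exact permutation p = 0.75). Against peaks beyond 500 bp the difference was 5.02 ± 0.670 points, also positive in 3 of 3 replicates (exact permutation p = 0.25).

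All 3 top lists held 601 members (64.0%, 60.9 to 67.0), exactly 2 held 227, exactly 1 held 107 and none held 4. Members in all 3 had a median signal of 248, against 141 for those in 2 and 122 for those in 1. At any rank, 934 members overlapped a peak in every replicate. For most members, though not all, the summit moved little between lists. The median shift from the pooled summit was 26, 19 and 18 bp in replicates 1, 2 and 3. The shift was at most 50 bp for 642 of 935, 721 of 938 and 707 of 939 members found. By its own summit the replicate peak was also 1 to 500 bp upstream of the same TSS in 91.1%, 93.6% and 94.6% of members found.

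For some members the replicates differed widely. The replicate ranks differed most at the TSS shared by CG43783 and orb2 (an RNA-binding protein of long-term memory), at 21233, 717 and 3612. They were 156, 82 and 2112 at a member of dnc (a cAMP phosphodiesterase), all within the top lists. A stronger dnc member nearby had ranks of 156, 82 and 139, so the first 2 are those of a replicate peak that overlaps both. They were 2375, 27842 and 1136 at DopEcR (a receptor for dopamine and ecdysone). At Pfrx (the enzyme of fructose 2,6-bisphosphate) they were 3103, 1115 and 22126, and at Smyd3 19559, 1066 and 4674. The replicate that ranked the peak lowest was replicate 1 in 2 of these 5, replicate 3 in 2 and replicate 2 in 1. There were 5 members that overlapped no peak of 1 replicate and they were named after their values were seen. They were Ptp99A, RpL38, Elovl7 and tmod in replicate 1 and by in replicate 2. At by, the nearest peak of replicate 2 lay 1 bp away and ranked 148 there, while replicates 1 and 3 ranked their peaks 101 and 89.

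The summits were mostly noncoding. Of the members, 49.8% lay between genes and 41.6% in an intron, and only 0.213% (2 peaks) lay in coding sequence, against 49.3%, 35.3% and 2.72% of non-optimal peaks. The share in a 3' untranslated region was 1.06% for members and 4.10% for non-optimal peaks. The summit was inside the body of its own gene for 388 members (41.3%), and 554 (59.0%) stood upstream of the 5' end of the gene. A transfer RNA gene had its TSS within 500 bp of 11 members (1.17%, 0.655 to 2.09), against 0.361% of non-optimal peaks.

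The 939 members had 852 nearest genes, which tended to be longer than other genes and more often had several annotated starts. Their median length was 8172 bp, against 4108 bp for the other 2218 genes with a non-optimal peak upstream of a single promoter and 2166 bp for all 13945 protein-coding genes. More than 1 annotated TSS was present in 62.4% (59.1 to 65.6), 44.5% and 26.5% of these sets. Genes known only by a CG or CR number were 30.5% of the members' genes and 43.7% of all. Genes with several starts offer more places for a peak to lie near, and the part of gene length in these shares was not tested.

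At 95 genes there were 2 or more members, and at most 5. Ptpmeg2 had 3, each upstream of another start, at -200, -188 and -187 bp with optimal ranks of 41, 272 and 974. PAN3 had members at -129 bp (rank 37) and -59 bp (rank 2837) of 2 starts. REPTOR, a transcription factor acting downstream of TORC1, had members at -174 bp (rank 52) and -50 bp (rank 2194). At brwl the positions were -179 and -168 bp and the ranks 53 and 127. At Atf3, 2 summits within 1 interval were called, at -174 and -380 bp, with ranks of 39 and 760, and these share their replicate peaks.

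The locus of the genes named in the labels held a member. Whether the tagged copy itself lies there is not shown by these data. The TSS is annotated to both CG45071 and Ctps (CTP synthase), and the peak at chr3L:15105725-15105833 had its summit 48 bp upstream. It ranked 1433 in the optimal list and 1171, 1250 and 1693 in replicates 1, 2 and 3, so it was near the middle of the members. It was 109 bp wide, the least among members, had 57.2% G+C, and was the single optimal peak whose summit the caller placed past the end of the interval, by 1 bp.

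Genes were next read by function, over 23 lists of genes. The base for each list is the genes with any pooled peak upstream of a single promoter, of which 27.8% (852 of 3070) had a member. The median rank over the 852 genes was 1384 and the median position -185 bp. Counts below are descriptions set beside that share, and most lists are short.

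Cytoplasmic ribosomal protein genes were the largest group. A member was found at 16 of the 22 with a pooled peak (72.7%, 51.8 to 86.8), which is 17.6% of all 91 such genes, against 6.11% of all protein-coding genes. Their median rank was 592.5, and their summits were close to the TSS, with a median of -25.5 bp. All 16 lay within 100 bp. RpL24, of the large subunit, ranked 281, 167 and 172 in the replicates with its summit at -10 bp. RpS10b, of the small subunit, ranked 330, 273 and 275 at -1 bp, and RpL11, of the large subunit, 498, 378 and 393 at -21 bp. Replicate 1 placed each of these 3 peaks lowest. Mitochondrial ribosomal proteins had a member at 1 of 4 genes, mRpL41.

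Translation factors had a member at 7 of 16 genes (43.8%, 23.1 to 66.8). These were eEF1gamma, with replicate ranks of 358, 86 and 164, eIF6 (a factor of large-subunit maturation) with 190, 136 and 316, eIF2D with 2985, 1058 and 2693, and 4 others. In contrast, no member was found at any of 10 respiratory chain genes (0%, upper Wilson limit 27.8%), 3 proteasome genes or 3 aminoacyl-tRNA synthetase genes with a pooled peak. The upper limit for the respiratory chain reaches the background of 27.8%, so its lack of members is not set apart by these counts. Of 8 genes of the vacuolar proton pump, 1 had a member, Vha16-1.

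Glycolysis genes had a member at 6 of 9 (66.7%, 35.4 to 87.9), out of 12 listed. Gapdh2, Hex-A, Eno, Ldh, Pgk and PyK span the pathway from hexokinase to pyruvate kinase and lactate dehydrogenase, and their median rank was 174.5. Hex-A ranked 52, 43 and 47 in the replicates with its summit at -139 bp, and Eno, the enolase, 125, 228 and 64 at -168 bp. Unlike those of the ribosomal genes, these summits had a median position of -184.5 bp, close to that of all members.

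Nucleotide synthesis genes had a member at 4 of 7 (57.1%), with an interval that includes the background. Besides Ctps and su(r), a dehydrogenase that breaks down pyrimidines, they included Prps, which makes phosphoribosyl pyrophosphate, with replicate ranks of 470, 839 and 566. Adsl, the adenylosuccinate lyase of purine synthesis, ranked 1030, 1340 and 2050. Heat shock and chaperone genes had a member at 3 of 8. Hsp83 was the strongest, Hsp27 ranked 199, 154 and 189, and Hsp26 ranked 2796, 770 and 1005, with replicate 1 the lowest for both small heat shock proteins.

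Signalling genes of the EGFR, Notch and Wnt pathways had a member at 7 of 11 (63.6%, 35.4 to 84.8). The kinase sgg (fly GSK3) ranked 140, 72 and 146 in the replicates, the EGFR ligand spi 342, 268 and 419 and the EGFR inhibitor aos 511, 1155 and 604. The other 4 were nkd (a Wnt inhibitor), mam (a Notch coactivator), pnt (an ETS factor) and fz2 (a Wnt receptor), with optimal ranks between 929 and 3458. Of the insulin and growth genes, the transcription factor foxo had a member at rank 475 and the transcription factor Myc had one near the foot of the list, at rank 3330.

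Lists of developmental regulators had counts that the background share does not set apart. Neural genes had a member at 3 of 7 (42.9%, with a lower Wilson limit of 15.8%). The neuronal RNA-binding protein elav ranked 32, 73 and 36 in the replicates, the Notch inhibitor numb 196, 250 and 176, and the translational repressor brat 1071, 2230 and 1183. Mesoderm and muscle genes had 3 of 11 (27.3%, against 27.8% over all genes), with the heart factor tin at rank 682, the titin-like sls at 1904 and the tropomyosin Tm1 at 2645. Cell cycle genes had 3 of 7, with the E2F partner Dp at rank 436, the cyclin CycE at 647 and E2f1 at 3127. None of 6 gap and pair-rule genes (upper Wilson limit 39.0%) and neither of 2 Hox genes (65.8%) with a pooled peak had a member. The same was true of 5 odorant and gustatory receptor genes (43.4%) and of 6 larval cuticle and eggshell genes (39.0%). All these limits lie above the background.

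The lists of chromatin genes were too short to be set apart from the background share or likened to it. Polycomb group genes had a member at 1 of 3 (6.15 to 79.2%), ph-p. Trithorax group genes had 2 of 7 (8.22 to 64.1%), kis and lolal, with optimal ranks of 3126 and 3176. Insulator protein genes had 1 of 4 (4.56 to 69.9%), BEAF-32 at rank 3040. At kis, a chromatin remodeller, replicates 1 and 2 ranked the peak 3852 and 1492 and replicate 3 ranked it 23148. Of 4 actin and tubulin genes, Act5C had a member, at -474 bp and rank 1280.

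**Figure D3:**
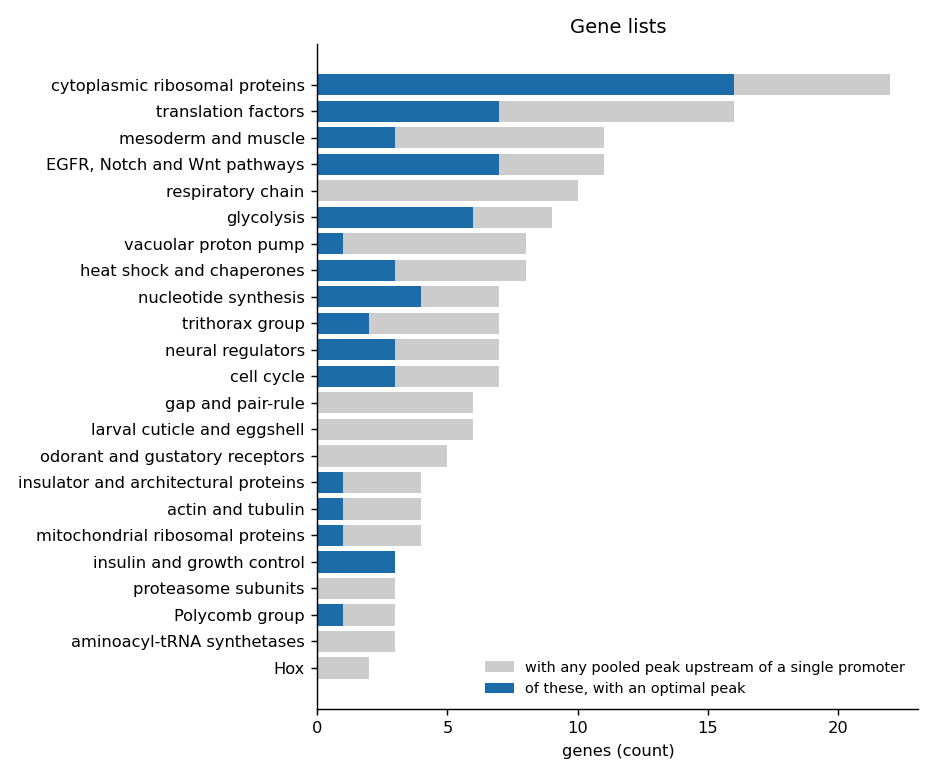
For each of the 23 gene lists, the number of genes with any pooled peak upstream of a single promoter (grey bar) and, of these, the number with a member (blue part). The blue part fills 16 of 22 for cytoplasmic ribosomal proteins and 6 of 9 for glycolysis, and is absent for the respiratory chain (0 of 10).

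The DNA under member summits had a lower G+C content than that under non-optimal summits, though not at every member. In the 201 bp around the summit, median G+C was 36.3% for members (quartiles 30.8 and 44.8, and 47.8% at Ugalt, the strongest), 41.8% for non-optimal peaks and 37.3% in the 201 bp that end at the 5' end of each protein-coding gene (called gene starts below). Optimal peaks with an opposite-strand TSS had 35.8%, those downstream of a TSS 44.8% and those beyond 500 bp 35.1%. Averaged along the sequence, G+C fell from 40.4% at 300 bp upstream of the summit to 35.5% at 20 bp upstream, and was 46.9% at 300 bp downstream, on the gene's side. Non-optimal peaks showed no such dip, with 41.9% at the summit and their lowest value, 39.0%, at 220 bp upstream.

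**Figure D4:**
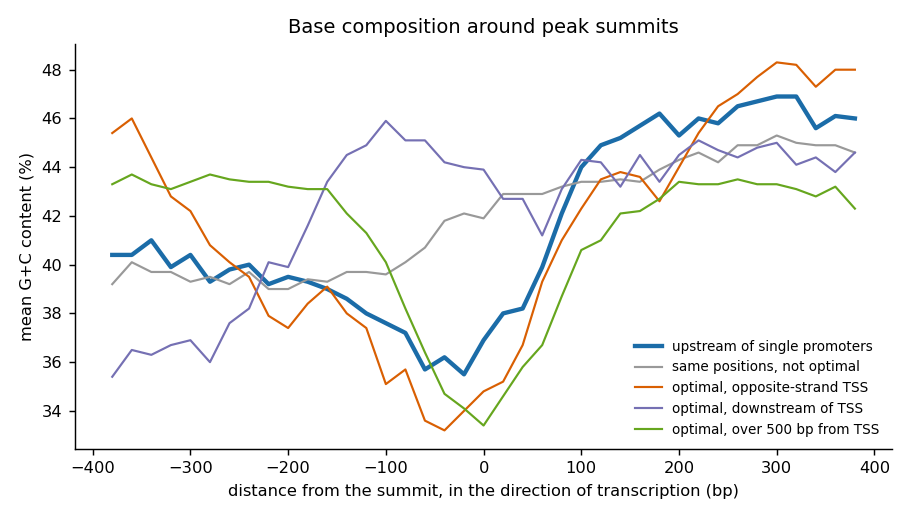
Mean G+C content (percent) in 21 bp steps around the summit (bp, oriented in the direction of transcription of the nearest gene) for members, non-optimal peaks at the same positions and the 3 other sets of optimal peaks. Members dip to 35.5% just upstream of the summit, while non-optimal peaks have 41.9% at the summit.

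The low G+C belonged to summits away from the TSS. Among summits 1 to 100 bp upstream, members and non-optimal peaks had nearly equal medians of 46.5% and 45.8%. At 101 to 200 bp the medians were 34.3% and 40.3%, at 201 to 300 bp 33.8% and 40.3%, at 301 to 400 bp 33.1% and 38.3%, and at 401 to 500 bp 33.3% and 39.3%. The difference of members from non-optimal peaks was between -6.47 and -5.22 points in each of these bins. G+C also went with rank, with medians of 33.8% in the 313 strongest members, 35.8% in the next 313 and 40.3% in the 313 weakest. Of all 2080 6-base words (a word and its reverse complement counted as 1), the 50 that gained most in members over non-optimal peaks included 29 made of A and T alone, out of 36 that exist. The first was ATTTAA, in 43.1% of members, 28.6% of non-optimal peaks and 39.1% of gene starts, so members were nearer to gene starts. The 50 that lost most held no A/T-only word, and 46 of them had at least 3 G or C.

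Known promoter motifs were then searched on both strands in the same 201 bp. There were 19 motifs, and a match is only a match of letters. Member windows centre on the summit and gene-start windows end at the 5' end of the gene, so their shares are taken at unlike positions. The TATA box letters, TATAAA, were in 34.6% of members (31.6 to 37.7), 25.2% of non-optimal peaks and 37.0% of gene starts. On the sense strand and 40 to 15 bp upstream of the TSS, they were at 3.82% of the members' starts (2.74 to 5.29), 5.66% of those of non-optimal peaks and 6.87% of all protein-coding starts. The part of base composition in these shares was not tested. The homeodomain core TAATTA was in 14.1% of members, 11.4% of non-optimal peaks and 15.5% of gene starts.

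The DRE and motif 1 were uncommon. The DRE letters, TATCGATA, were in 2.13% of members (1.38 to 3.27), 2.56% of non-optimal peaks and 7.39% of gene starts. Optimal peaks with an opposite-strand TSS had them in 7.75% (5.54 to 10.7). Among the 232 members within 100 bp of the TSS the share was 5.60% (3.30 to 9.35), an interval that includes the gene-start share. The core of Ohler motif 7, CANCNCTA, showed the same order, at 7.67% of members, 7.87% of non-optimal peaks, 15.5% of opposite-strand peaks and 9.65% of gene starts. Motif 1, GGTCACACT, was in 1.17% of members, 1.44% of non-optimal peaks, 2.66% of opposite-strand peaks and 2.80% of gene starts. The core of Ohler motif 6, GTATNTTT, was in 9.69% of members (7.96 to 11.8) and 7.87% of non-optimal peaks. Its share was 11.1% in opposite-strand peaks (8.45 to 14.5) and 11.4% in gene starts. Between members and opposite-strand peaks the intervals do not overlap for the DRE and Ohler 7, while they do for motif 1 and Ohler 6. CA repeats, CACACACA, were in 3.30% of members, 6.53% of non-optimal peaks and 2.67% of gene starts.

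GAGA letters, GAGAGAG, were in 11.8% of members (9.91 to 14.0), 10.6% (9.55 to 11.7) of non-optimal peaks, 1.45% of opposite-strand peaks (0.667 to 3.13) and 4.73% of gene starts. Their share in members was thus above that of gene starts and of opposite-strand peaks, and its interval overlapped that of the non-optimal peaks. Members with GAGA letters had a lower median signal, 158 against 187, and a higher median G+C, 47.3% against 35.3%. Their summits were nearer the TSS, at a median of -122 bp against -194 bp.

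The members were then split at 100 bp from the TSS, a limit chosen after the values were seen. The 232 near members and the 707 far ones differed in sequence. GAGA letters were in 20.3% of near members (15.6 to 25.9) and 9.05% of far ones (7.15 to 11.4), the DRE in 5.60% and 0.990%, and CAGCTG in 18.1% and 8.49%. GGCANCG, the core of Ohler motif 8, was in 13.4% and 4.53%, and CA repeats in 6.90% and 2.12%. The order was the other way for TATAAA, at 17.7% and 40.2%, and for TAATTA, at 6.47% and 16.5%. Near members were weaker, with a median signal of 155 against 198, and 51.7% of them (45.3 to 58.1) were in all 3 top lists, against 68.0% of far ones (64.5 to 71.4). More than 1 TSS was annotated for 63.9% of near and 63.4% of far genes.

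GAGA letters were less frequent under the far summits, and up to 100 bp upstream of them, than at most distances beyond. In 50 bp bins around the far summits, with each match placed by its middle base, a match was found in 5.09% of members 101 to 150 bp upstream and 5.80% at 151 to 200 bp upstream. The share was 2.55% at 51 to 100 bp upstream (1.62 to 3.99), 1.98% in the 50 bp just upstream of the summit (1.18 to 3.30) and 1.41% from the summit to 49 bp downstream (0.770 to 2.58). It was again 5.37% at 50 to 99 bp downstream (3.94 to 7.29) and 5.52% at 150 to 199 bp. Non-optimal peaks at the same distances from the TSS had no such gap, with 2.41% and 3.15% in the 2 bins at the summit and 1.18% at 151 to 200 bp upstream. Within 200 bp on either side, 25.9% of far members (22.8 to 29.2) had GAGA letters, against 15.7% of non-optimal peaks (14.2 to 17.4). Only 4 of 707 had them on both sides between 26 and 150 bp, so the pattern comes from members with the letters on 1 side or the other. These bins were also chosen after the data were seen. The gap coincides with the dip in G+C at the summit, and the part of base composition in it was not tested.

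Counted from the TSS instead, GAGA letters were most frequent 51 to 100 bp upstream. They were found there at 11.1% of the members' 891 starts (9.21 to 13.3), at 5.95% of the starts of non-optimal peaks and at 2.91% of all 19253 protein-coding starts. Over the 200 bp upstream of the TSS the shares were 20.3% (17.8 to 23.1), 13.1% and 6.30%. Members' starts were also above both other sets at 451 to 500 bp upstream, with 4.15% against 1.00% and 0.764%. From the TSS to 49 bp downstream the intervals of the 3 sets overlapped. At 50 to 99 bp downstream the share was 1.68% for members' starts (1.02 to 2.76) and 0.623% for all protein-coding starts (0.522 to 0.745). These intervals do not overlap, while that of the starts of non-optimal peaks (0.843 to 1.66) overlaps the members'. The next 50 bp gave the same order, and in the bins beyond it the intervals of the 3 sets again overlapped.

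**Figure D5:**
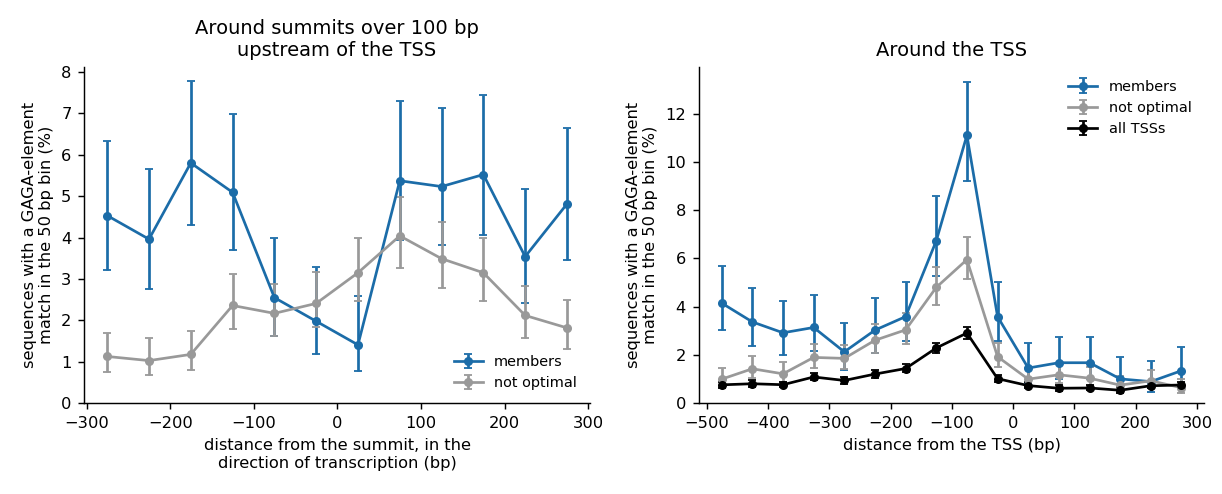
Share of sequences (percent) with GAGA letters on either strand in each 50 bp bin, with Wilson 95% intervals. Left, around summits 101 to 500 bp upstream of the TSS, where members fall to 1.41% at the summit; right, around the TSS, where members' starts peak at 11.1% in the bin 51 to 100 bp upstream.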

How the data were processed

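ChIP-seq peak lists of 3 biological replicates on dm6 were used, and dm3 lists were not used here. Per the submitters' file list, the authors made each replicate's list (30000 peaks) from that replicate's alignments with 1 control file. They made a pooled list by joining all 3 replicates' alignments, and applied IDR, a test of reproducibility, to obtain the optimal list. The pooled list is labelled as peaks and background used as input for IDR. Which aligner, which caller and which IDR cutoff were used is not given in the sources used here. Peaks were ranked by the signal column as deposited by the authors, only within a list. Coordinates count from 1.

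TSSs were those of Ensembl release 115 (19253 starts of 13945 protein-coding genes), on the same Release 6 assembly as the peaks and the RefSeq sequence. A member's replicate rank was the best of the peaks overlapping it by at least 1 bp. A weak member can thus take the rank of a stronger neighbour's replicate peak, and there were 49 overlaps between neighbouring members. Motifs and G+C were read within 100 bp of the summit. Over 23 gene lists, 10 symbols had no match and were left out. The single test was a two-sided exact sign-flip permutation over the 3 replicates, whose smallest p is 0.25. Its p-values compare the mean difference with the means under all sign changes of the 3 replicate differences. Where the 3 differences have the same sign, p is 0.25 whatever their spread, which the SD gives. Peaks were ranked, placed and counted by steps tested on simulated data.

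The genes named are those of the 20 strongest members. They also include the 2 nearest to and farthest from the TSS, the 2 just past each limit and the 3 strongest per list. Also named are the 5 with the most unlike replicate ranks, 5 with several members, and the locus of the genes in the labels. A gene that the rule names is not reported here. Some further members of short lists and the members not found in a replicate were named after their values were seen. The members and lists were chosen with earlier results of these data known. Alternatives were other windows, TSS sets, overlap rules, list lengths, motif windows and the optimal list limited to its stronger members. Python 3.11.15 with numpy 2.4.6, pandas 2.3.3, scipy 1.17.1 and matplotlib 3.10.9 was used.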

Additional observations from a re-analysis of the deposited data

How the results depend on the processing

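The member count was 939 and became 588 with the 5' end of each gene as its only TSS and 538 when the optimal list was limited to its stronger 50%. The median position became -132.5 bp with a window of 250 bp, -220 bp with 1000 bp and -173 bp with 5' ends only. The optimal share of pooled peaks, 23.6%, fell to 21.0% with a window of 1000 bp. The mean top-list share of members, 83.9%, was 77.2% for summits within 100 bp, 72.0% for overlap of at least 50% of both peaks, 39.1% with top lists of 1000 peaks, 98.1% with 10000 and 97.5% for the stronger 50% of the list, and ranged from 82.5 to 86.3% without 1 replicate. The difference from opposite-strand peaks turned to -1.01 points under the 50% overlap and ranged from -0.507 (without replicate 3) to 1.93 points without 1 replicate, and it was 3.12 points with top lists of 1000 peaks. The difference from downstream peaks, 7.95 points, stayed above 0 in all settings run and ranged from 7.47 to 8.71 without 1 replicate. Its size depended on the setting. It fell to 2.08 ± 1.15 points under the 50% overlap and to 1.58 ± 0.756 points with top lists of 10000 peaks. The lowest value was 0.706 ± 1.74 points, for the stronger 50% of the list. With top lists of 1000 peaks the difference was larger than in the main setting. The number of the 19 motifs with a higher share in members than in non-optimal peaks was 5, and 11 within 250 bp of the summit, where GAGA letters were in 29.1% of members and 18.2% of non-optimal peaks. The order was the other way within 50 bp (5.64% and 5.81%) and for the stronger 50% of the list (9.48% and 10.6%). For these changes the cause was not tested. Of 46 gene list counts under other windows, 38 were within 1.5 times. No paired analysis was possible because there is 1 group and no second group to pair with it, while peak sets were compared within each replicate. Depth is unknown, and neighbouring peaks are not independent, so the intervals are too narrow to that extent.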
